A study of Homo sapiens with 4 samples.

Results

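The type II keratins followed here are KRT5, KRT6A, KRT6B, KRT7, KRT8, KRT80, KRT81 and KRT86, a set of 8 genes taken by exact gene symbol from the labels of 2 lists of iCLIP crosslink sites. Of these 8, 7 carried at least 1 listed site, among 14387 gene labels with a site in either list, and KRT6B carried none. The members held 565 of 158922 sites in the PDCD4 list and 177 of 111361 sites in the IgG list. In iCLIP, UV light links RNA to the proteins it touches, an antibody isolates one protein, and cDNAs made from the attached RNA end next to the linked nucleotide, so that each end marks a contact. MCF10A, an established and untransformed line of human breast epithelium of wild-type (WT) genotype in both groups, was irradiated with UVC and immunoprecipitated with an antibody against PDCD4, an RNA-binding tumour suppressor, or with isotype control IgG, with 2 replicates each. Each list pools its 2 replicates, so no spread between replicates and no test between the lists exists, and every interval given below covers counting error only. The abundance of these mRNAs was not analysed here, so contact and the amount of RNA cannot be told apart in the counts.

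Keratins are the intermediate filament proteins of epithelia. A filament is built from pairs of 1 type I and 1 type II chain that wind around each other through a long alpha-helical rod, and desmosomes and hemidesmosomes anchor the filaments to neighbouring cells and to the matrix. KRT5 is the type II chain of basal epithelial cells, KRT6A and KRT6B are chains of activated and wounded epithelium, KRT8 and KRT7 belong to simple and glandular epithelium, KRT80 is a widely expressed epithelial chain, and KRT81 and KRT86 are chains of hair and nail. The genes lie side by side on chromosome 12 and arose from each other by duplication, so that they share exon layout and much sequence.

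KRT7 led the family in both lists. Its label had 239 sites and 808 cDNAs in the PDCD4 list, which is 19.7 cDNAs per 10000 of the list (95% Poisson interval 18.4 to 21.2), against 87 sites and 267 cDNAs in the IgG list, or 9.67 per 10000 (8.54 to 10.9). Only 11 gene labels held more PDCD4 cDNAs. For KRT5 the PDCD4 list gave 352 cDNAs at 105 sites (8.60 per 10000) and the IgG list 74 at 30 sites (2.68 per 10000). KRT81 stood level with KRT5 in the PDCD4 list, with 110 sites and 351 cDNAs (8.58 per 10000), and had 26 IgG sites with 88 cDNAs (3.19 per 10000). KRT6A had 165 PDCD4 cDNAs at 55 sites against 40 IgG cDNAs at 12 sites. The remaining labels were sparse. KRT86 had 89 PDCD4 cDNAs at 38 sites against 53 IgG cDNAs at 19 sites, KRT8 had 38 at 16 against 6 at 1, and KRT80 had 8 at 2 against 3 at 2. The PDCD4 interval lay above the IgG interval for KRT5, KRT6A, KRT7, KRT8 and KRT81, and the intervals overlapped for KRT80 and KRT86.

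**Figure D1:**
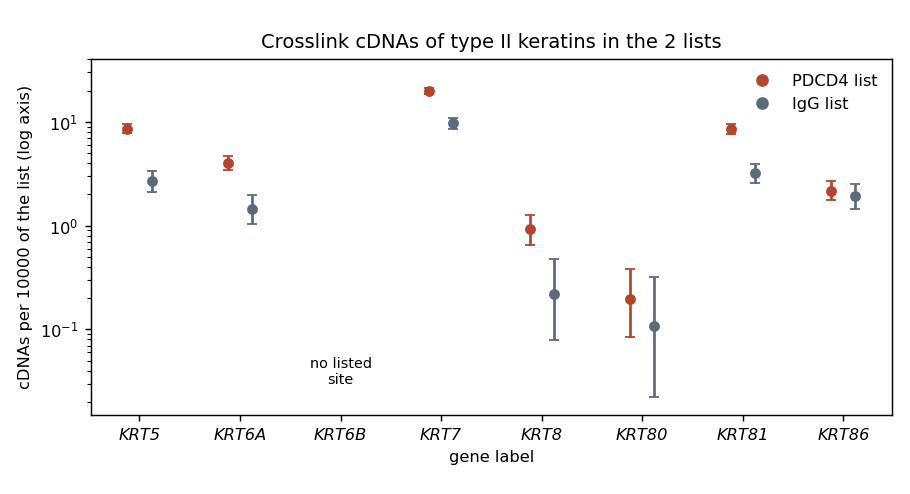
cDNAs of each gene label per 10000 cDNAs of its list (log axis), with red points for the PDCD4 list, grey-blue points for the IgG list and bars for 95% Poisson intervals of the pooled sums. KRT7 is the highest label in both lists (19.7 and 9.67 per 10000), the 2 intervals of KRT86 overlap, and KRT6B has no listed site.

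As a log2 ratio of shares, with 1 cDNA added to each sum, the family stood at 1.20 (95% exact binomial interval 1.06 to 1.34), from 1811 PDCD4 cDNAs at 565 sites with a mean score of 3.21 and 531 IgG cDNAs at 177 sites with a mean score of 3. Only sites that passed a false discovery rate filter are listed, and per the methods IgG sites had been subtracted from PDCD4 before it. All ratios here therefore compare listed cDNAs, and how far these steps moved them was not tested. The ratios were 1.91 for KRT8 (0.84 to 3.63), 1.67 for KRT5 (1.32 to 2.06), 1.45 for KRT6A (0.97 to 2.01), 1.42 for KRT81 (1.09 to 1.78) and 1.03 for KRT7 (0.83 to 1.23). They were 0.60 for KRT80 (-1.21 to 3.40) and 0.17 for KRT86 (-0.33 to 0.70). Hence 5 of 7 labels were at least 2-fold higher in the PDCD4 list (71.4%), where 18.8% of all 9581 genes with at least 10 cDNAs over both lists were. The median over the 7 labels was 1.42 and that over all genes compared was -0.08, and with so few labels of shared sequence this difference is a description without a test.

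Summed over the members, the ratio was higher on the spliced mRNAs than on the rest of the labels. On the representative mRNAs, which are the Ensembl canonical transcripts, the members held 1140 PDCD4 and 214 IgG cDNAs, a log2 ratio of 1.84 (1.63 to 2.06). Off these mRNAs they held 671 and 317 cDNAs, a ratio of 0.51 (0.32 to 0.71). Across all genes, exonic cDNAs gave 0.58 (0.56 to 0.59) and intronic ones -0.44 (-0.45 to -0.43). The 2 splits are unlike, because the values for all genes count an exon of any transcript, ncRNA exons included, as exonic. With that limit, the on-mRNA interval lay above that of all exonic cDNAs. The off-mRNA value rested on KRT7, which gave 532 of the 671 PDCD4 cDNAs. Without KRT7 and KRT86 it was -0.02 (-0.67 to 0.66), an interval that includes the intronic value of all genes, while the on-mRNA value of the same genes was 1.71 (1.48 to 1.96). KRT7, the lowest of the well covered labels over all its sites, was the highest on its mRNA. It held 276 PDCD4 and 37 IgG cDNAs there, a ratio of 2.30 (1.83 to 2.87), against 532 and 230 cDNAs elsewhere, a ratio of 0.64 (0.42 to 0.87). KRT6A stood at 1.91 on its mRNA (1.37 to 2.59), KRT5 at 1.82 (1.45 to 2.25) and KRT81 at 1.54 (1.19 to 1.93), and these intervals overlapped with that of KRT7. Off the mRNA, KRT5 held 13 PDCD4 and 10 IgG cDNAs and KRT81 held 20 and 12, both with intervals that include 0. KRT6A held 4 and 12 there, a ratio of -1.95 (-4.24 to -0.43). KRT8 and KRT80 did not show this order. KRT8 held 30 and 6 cDNAs on its mRNA (1.58, 0.47 to 3.31) and 8 and 0 off it. Of these 8, 4 lay at positions 52948236 and 52948237, outside the representative transcript and its introns. KRT80 held 3 and 3 on its mRNA and 5 and 0 off it.

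**Figure D2:**
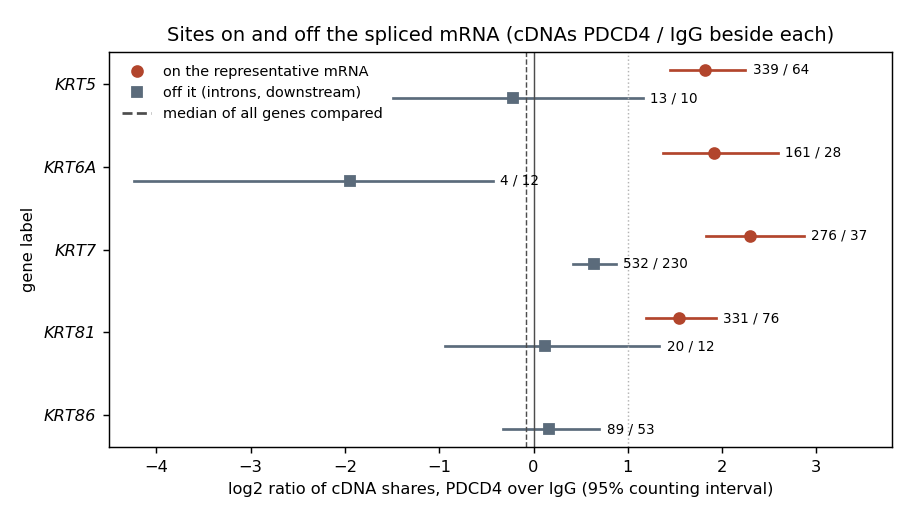
Log2 ratio of PDCD4 over IgG cDNA shares for sites on the representative spliced mRNA (red circles) and off it (grey-blue squares), with 95% counting intervals and the cDNAs of both lists beside each point; the dashed line marks the median of all genes compared and the dotted line a 2-fold difference. KRT8 and KRT80, with 8 and 5 PDCD4 cDNAs and no IgG cDNA off their mRNAs, are not drawn. The 4 genes drawn with both points have the red point to the right of the square, from 1.54 for KRT81 to 2.30 for KRT7.

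Per length of mRNA, PDCD4 cDNAs stood at 172 per kb on KRT81 (154 to 191), 170 per kb on KRT7 (150 to 191) and 151 per kb on KRT5 (136 to 168), 3 neighbours whose intervals overlapped. KRT6A followed at 69.8 per kb (59.4 to 81.4), KRT8 at 16.8 (11.3 to 24.0) and KRT80 at 0.775 (0.16 to 2.26), each below the previous one without overlap. In the IgG list the order was KRT81 at 39.4 per kb (31 to 49.3), KRT5 at 28.6 (22 to 36.5), KRT7 at 22.8 (16.0 to 31.4) and KRT6A at 12.1 (8.06 to 17.5), with overlap between each neighbouring pair. These densities are limited by shared sequence, and so is the order of the genes by density. A stretch of 30 nt starting behind a position occurs nowhere else in the genome or in another gene's transcripts for 96.3% of KRT80 mRNA positions, 92.4% of KRT7, 90.2% of KRT5, 52.2% of KRT86, 45.8% of KRT6A, 45.6% of KRT81, 40.7% of KRT6B and 25.6% of KRT8. KRT8 shared 641 of its 1784 nt with the pseudogene KRT8P3, KRT6A shared 1061 of 2308 nt with KRT6C and 940 with KRT6B, and KRT81 shared 905 of 1929 nt with KRT86. How the authors' mapping treated reads with several matches is not given in the sources used here.

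Position within exons set a further limit, and it was not particular to keratins. Of the 127 PDCD4 sites in members' exons other than the last, 1 lay in the last 60 nt of its exon, although these ends make up 32.6% of the positions. The 20 IgG sites had none there. Over all protein-coding genes, 4.85% of such PDCD4 sites and 7.17% of such IgG sites lay in the last 60 nt of an exon, which hold 35.6% of the positions. Exon 3, of 61 nt, and the last but one exon, of 32 to 59 nt, held no site in any member. Positions that are unique and at least 60 nt from an exon end, or unique and in the last exon, are called open below.

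KRT7 (chr12:52232520-52252186, plus strand, GRCh38) had sites on exons and on the introns between them. Its mRNA held 80 PDCD4 sites, of which 36 lay in exon 9 with 148 cDNAs, 24 in exon 1 with 57, 9 in exon 7 with 36, 5 in exon 5 with 20, 4 in exon 2 with 10 and 2 in exon 4 with 5. The IgG list had 10 sites on the same mRNA, with 3 in exon 9 and at most 2 in any other exon. The highest keratin site of either list was chr12 position 52248713, with 19 cDNAs, in the coding part of exon 9, 123 nt from its start. It opens a run of 13 sites within 22 nt that held 72 cDNAs, 8.91% of the label, and no IgG site lay in that stretch. A site of 11 cDNAs at position 52248729 belongs to the same run. The stretch is printed with every PDCD4 site in capitals, chr12:52248705-52248742 on the plus strand:
KRT7 exon 9, nt 115 to 152: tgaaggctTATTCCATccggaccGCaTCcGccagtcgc

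Downstream in the 3′UTR of the same exon a further run of 13 sites, 207 to 227 nt from the exon start, held 43 cDNAs.

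**Figure D3:**
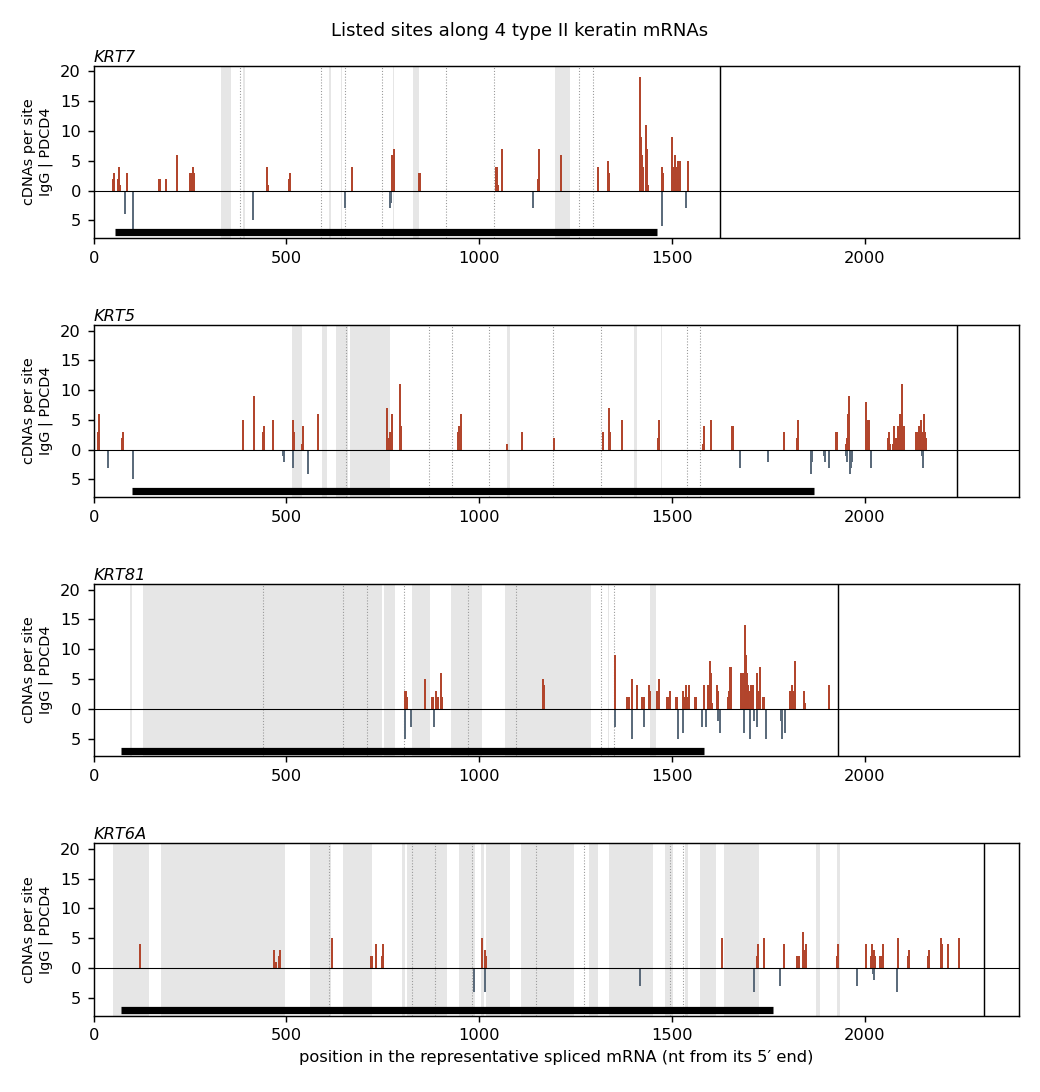
Listed sites along the representative spliced mRNAs of KRT7, KRT5, KRT81 and KRT6A, with cDNAs per PDCD4 site drawn upward in red and per IgG site downward in grey-blue against the distance from the 5′ end of the mRNA in nt. Black bars mark the coding sequence, dotted lines exon starts, solid lines the mRNA end, and grey bands positions whose next 30 nt occur elsewhere. The highest stick is the KRT7 site of 19 cDNAs in exon 9, and KRT81 sticks crowd into its last exon behind the grey bands.

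Most KRT7 sites were intronic. Introns of the representative transcript had 157 sites for PDCD4 (525 cDNAs) and 76 for IgG (227 cDNAs), that is 37.4 and 16.2 cDNAs per kb over 14054 nt. The introns of KRT81 held 5.42 PDCD4 cDNAs per kb, those of KRT5 3.63, those of KRT6A 1.06, those of KRT8 0.656 and those of KRT80 0.261. Among KRT7 introns, intron 6 led with 77 PDCD4 sites and 225 cDNAs (98.9 per kb) against 24 IgG sites and 75 cDNAs (33 per kb). Intron 5 held 24 sites with 89 cDNAs, intron 2 held 24 with 90, intron 7 held 22 with 67, intron 3 held 8 with 41 and intron 8 held 2 with 13. Introns 1 and 4, of 1534 and 2696 nt, held no listed PDCD4 site, while the IgG list had 4 sites with 15 cDNAs in intron 1 and 3 sites with 6 cDNAs in intron 4. In KRT7 introns the IgG list kept many lone sites of 3 cDNAs, while listed PDCD4 runs mostly held 5 or more. Weak PDCD4 signal in introns 1 and 4 can therefore be missing from the list. The listed PDCD4 sites of KRT7 introns fell in 6 of 8 introns and not in proportion to length, and intron 6 held the most in both lists. Of the 157 intronic sites, 17 had a score greater than 5, against 2 of 76 in the IgG list. The highest was position 52242149, with 12 cDNAs, 513 nt into intron 5. It alone is in capitals, although weaker PDCD4 sites lie in the same window (chr12:52242135-52242163, plus strand):
KRT7 intron 5: aattttttttgtatTttgagtagagacga

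**Figure D4:**
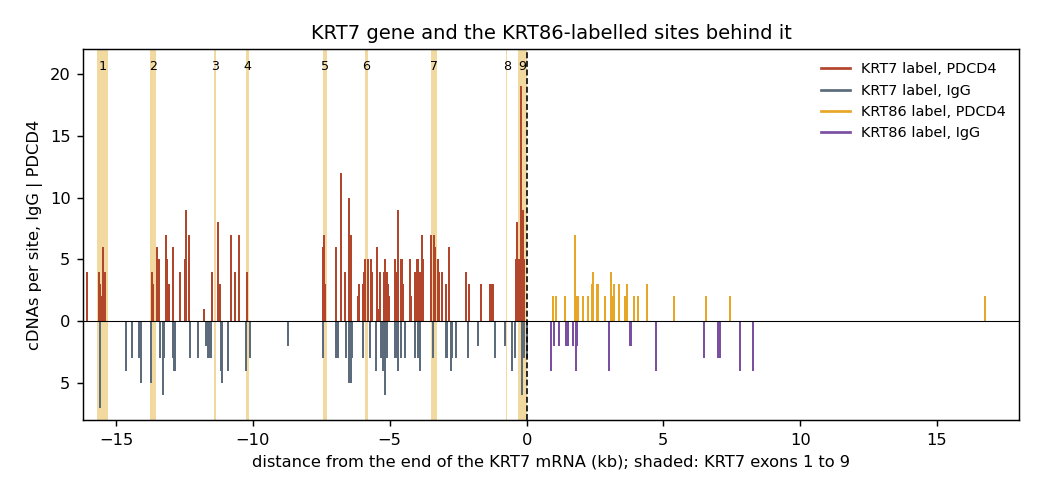
Sites over the KRT7 gene and behind it, with cDNAs per site (PDCD4 upward, IgG downward) against the distance from the end of the KRT7 mRNA in kb; shaded bands are KRT7 exons 1 to 9, and sites labelled KRT86 are drawn in yellow (PDCD4) and violet (IgG). KRT7 sites cover several introns as well as exons, and the KRT86-labelled sites begin 970 nt (PDCD4) and 901 nt (IgG) behind the KRT7 end.

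The KRT86 label was apart from KRT86 mRNA: none of its 38 PDCD4 or 19 IgG sites lay in an exon of the representative KRT86 transcript. Instead, 37 PDCD4 sites and 18 IgG sites lay between the end of the KRT7 mRNA and the first exon of that transcript, which starts 25724 nt further on. The nearest was 970 nt behind the KRT7 end in the PDCD4 list and 901 nt in the IgG list, and the medians were 2620 and 2428 nt. Of the 38 PDCD4 sites, 33 with 79 cDNAs lay within 5 kb, and of the 19 IgG sites, 13 with 34 cDNAs did. GENCODE annotates the KRT86 gene from 52249300 (chr12:52249300-52309163, plus strand), which takes in this span. The annotated KRT7 gene, with its other transcripts, ends at 52252186, so that 25 of the 38 PDCD4 sites and 10 of the 19 IgG sites also lie inside it, behind the end of the representative KRT7 mRNA. Both genes are on the plus strand, so strand does not separate them. The coding sequence of KRT86 begins 52996 nt behind the KRT7 end and held no site. The whole KRT86 mRNA had 910 open nt, 730 of them in exon 11, which is mostly 3′UTR. The single site above 5 had 7 cDNAs (chr12:52250690-52250718, plus strand):
KRT86 label, behind KRT7: cttctgctcagagcTtctcccctctgttt

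KRT5 (chr12:52514575-52520530, minus strand) had nearly all its sites on exons, in coding sequence and 3′UTR in like number. Its 105 PDCD4 sites were divided into 50 coding, 48 3′UTR, 4 5′UTR, 2 intronic and 1 in an ncRNA exon, and its 30 IgG sites into 10 coding, 15 in the 3′UTR, 4 in ncRNA exons and 1 in the 5′UTR. Exon 9, which ends the coding sequence and holds the 3′UTR, took 58 of the 102 PDCD4 sites on the mRNA with 177 cDNAs, and 20 of 26 IgG sites with 46 cDNAs. Exon 1 took 18 PDCD4 and 6 IgG sites. Exons 2, 4, 5, 6 and 7 together had 26 PDCD4 sites with 91 cDNAs, and no IgG site lay in any of them. The PDCD4 list had 14 sites above 5 with 104 cDNAs, the IgG list had none, and the highest IgG score was 5. The sites with the highest scores had 11 cDNAs each, at position 52514717 in the 3′UTR and at position 52519019 in exon 2, and 9 cDNAs were counted at 52514855 in the 3′UTR and at 52519978 in exon 1. The largest run held 20 sites between nt 488 and 529 of exon 9, with 58 cDNAs (16.5% of the label). Its last 30 nt (chr12:52514712-52514741) carried 15 PDCD4 sites and no IgG site. The site of exon 1 (chr12:52519964-52519992) is in coding sequence. Both are shown with sites in capitals, the second with the 9-cDNA site alone:
KRT5 exon 9, nt 500 to 529: ctTCaAAtCagcCTTcagGTTtcCCacaGC
KRT5 exon 1: gtagtggatttggtTtcggcggtggagct

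KRT81 (chr12:52285913-52291534, minus strand) held 49 coding, 53 3′UTR and 8 intronic PDCD4 sites, and 9, 13 and 4 such IgG sites. Exon 9 took 87 of the 102 PDCD4 sites on the mRNA (85.3%) with 285 cDNAs, exon 5 took 13 with 37 and exon 7 took 2 with 9. No site lay in exons 1 to 4, 6 or 8, and the IgG list showed 19 of 22 sites in exon 9 and 3 in exon 5. Exon 9 is 30.1% of the mRNA but 71.8% of its open positions, and exons 2, 3, 4, 7 and 8 had no open position at all, through exon ends and sequence shared with KRT86, KRT83 and KRT87P. The score above 5 was reached at 16 PDCD4 sites, 13 of them in the 3′UTR, and at no IgG site. The highest were position 52286152 with 14 cDNAs and position 52286150 with 9, both in a run of 23 sites over nt 331 to 390 of exon 9 that held 97 cDNAs, 27.6% of the label. The IgG list had 5 sites with 15 cDNAs in its own largest run at nt 339 to 371. The other site of 9 cDNAs was at 52286491, 3 nt behind the acceptor splice site of exon 9, with a site of 6 cDNAs beside it at 52286490. The first line below has every PDCD4 site in capitals, and the second has the 9-cDNA site alone. They are the first 30 nt of the PDCD4 run (chr12:52286134-52286163) and genomic sequence across the splice site (chr12:52286477-52286505):
KRT81 exon 9, nt 331 to 360: TacTTctCctgCACtTtgAaaGaccCCtcC
KRT81 start of exon 9: cggggttcacaggtGtcagcagctcccgg

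Exon starts carried sites in other members too. Within the first 10 nt of exons 2 to 9 there were 14 PDCD4 sites with 49 cDNAs, of which 5 with 23 cDNAs were in KRT81, 5 with 12 in KRT5, 3 with 9 in KRT7 and 1 with 5 in KRT6A. The last 10 nt of introns held 2 PDCD4 sites, and the first 10 nt of introns held 1. The IgG list had 4, 1 and 0 sites in these windows. The exon starts thus took 14 of the 351 PDCD4 sites on members' mRNAs, no larger a share than 4 of 70 in the IgG list. A cDNA end in the first bases of an exon marks a contact on the spliced or the unspliced RNA alike.

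KRT6A (chr12:52487176-52493257, minus strand) held 39 of its 54 mRNA sites in exon 9 (72.2%), 7 in exon 2, 5 in exon 1 and 3 in exon 5. Exon 9 makes up 67.9% of its open positions. By region, 35 sites were in the 3′UTR, 19 in coding sequence and 1 in an ncRNA exon, and the IgG list had 5, 4 and 2 with 1 in an intron. The only site above 5 had 6 cDNAs, at 52487644 in the 3′UTR (chr12:52487630-52487658). The largest run, nt 476 to 518 of exon 9, held 12 sites with 28 cDNAs (17.0% of the label), and its last 30 nt (chr12:52487438-52487467) held 10 PDCD4 and 2 IgG sites. The first line below has the highest site alone in capitals, although PDCD4 sites at 52487638, 52487639 and 52487656 lie in its window. The second line has every PDCD4 site in capitals:
KRT6A highest site: tcctcaggttgcctTtcctctcctggcct
KRT6A exon 9, nt 489 to 518: TTattaaTTtCttgcctccagtgTtCTAtC

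KRT6B (chr12:52446651-52452146, minus strand), a near copy of KRT6A, had no listed site in either list, although 601 of the 775 nt of its exon 9 are unique and KRT6A had 39 PDCD4 sites over 590 unique nt of the matching exon. KRT6C and KRT83, with 575 and 465 unique nt in exon 9, also had none.

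KRT8 (chr12:52897187-52949954, minus strand) had 12 coding PDCD4 sites among 16, with scores of at most 4. They were spread over exons 1, 2, 4, 5, 6 and 8, and 8 of the 16 had a unique 30 nt sequence. A single IgG site in exon 5 had 6 cDNAs, more than any PDCD4 site of this label. KRT80 (chr12:52168996-52192014, minus strand) had the longest mRNA, of 3873 nt, and 3262 open positions, yet 1 PDCD4 site with 3 cDNAs and 2 IgG sites with 3 cDNAs in all on it. Its other PDCD4 site, of 5 cDNAs, was in intron 2. The lists do not resolve KRT80 from the control.

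Because exons 3 to 7 have the same length in the members (61, 96, 165, 126 and 221 nt, with exons 5 and 6 fused in KRT8), a site can be compared with the same nucleotide of a paralogue. Exon 2 has 215 nt in KRT5, KRT6A and KRT6B and was compared among these, and its 209 nt form among KRT8, KRT80, KRT81 and KRT86. Of 77 PDCD4 sites in exons 2 to 7, 39 (50.6%) had a PDCD4 site of another member within 2 nt of the same offset, 22 of them at the same nucleotide. The totals of both lists include exon 2 of KRT7, with 4 PDCD4 sites and 1 IgG site. These could have no partner, since no other member has its length of 212 nt. For 28 of the 39 the 30 nt sequence behind the site and behind its partner was unique. Sites came in runs and the open positions are few, so these counts are a description. In the IgG list 2 of 12 sites had a partner. These 2 sites form 1 pair, of KRT6A and KRT81 in exon 5, at different nucleotides. With so few IgG sites fewer partners were possible, so the shares of the 2 lists cannot be compared.

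**Figure D5:**
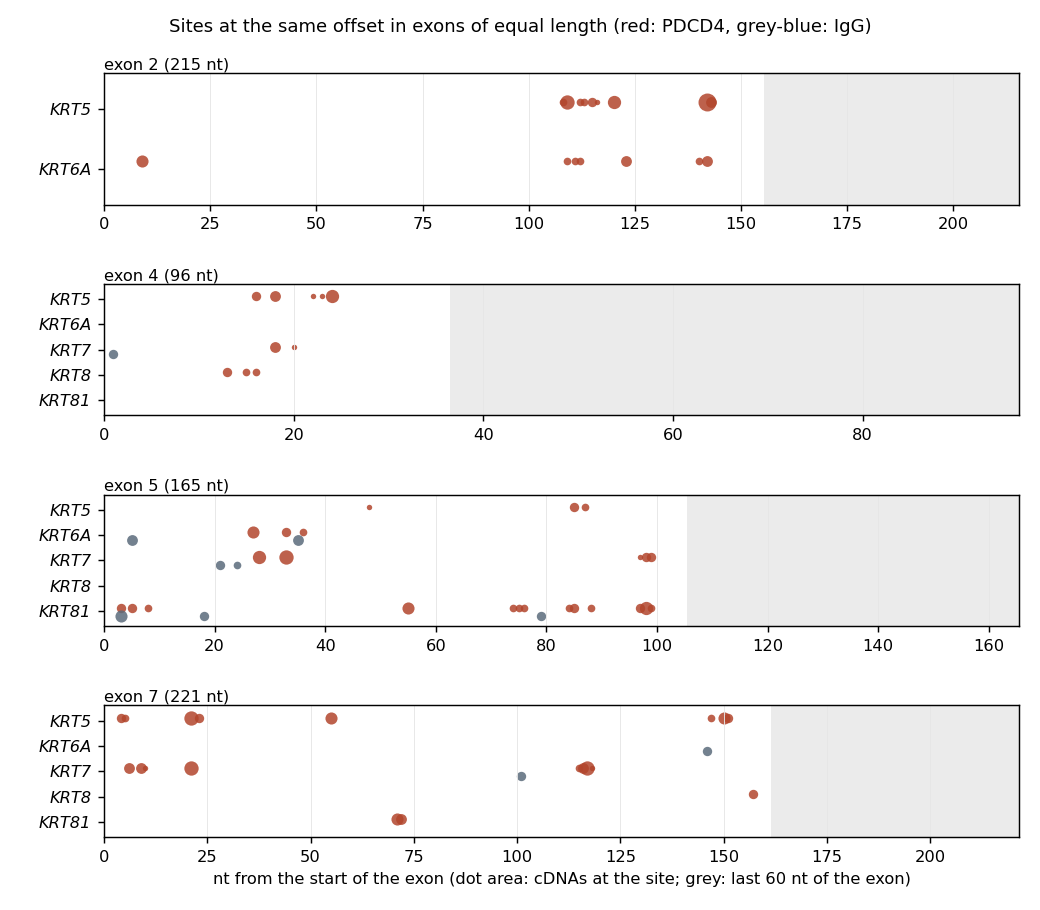
Sites in exons 2, 4, 5 and 7 by their distance from the exon start in nt, 1 row per gene, red for PDCD4 and grey-blue for IgG, with dot area in proportion to cDNAs; grey marks the last 60 nt of each exon. KRT5 and KRT6A share positions in exon 2, KRT5, KRT7 and KRT8 in exon 4, KRT7 with KRT6A and KRT81 in exon 5, and KRT5 with KRT7 in exon 7.

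The shared positions are shown as reference sequence in the direction of the mRNA, with PDCD4 sites in capitals. The stretches were chosen after their values were seen. In exon 2, KRT5 had 9 sites with 38 cDNAs in 52 nt and KRT6A had 6 with 16, in sequence identical at 50 of 52 positions. Nucleotide 142 was a site in both, with 11 cDNAs in KRT5 and 4 in KRT6A, and is unique in both. Sites at nt 108 to 113 fall where the 30 nt behind them are shared, so reads there can belong to either gene. The stretches are chr12:52519010-52519061 and chr12:52491586-52491637, both on the minus strand:
KRT5 exon 2, nt 100 to 151: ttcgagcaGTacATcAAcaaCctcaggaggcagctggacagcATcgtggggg
KRT6A exon 2, nt 100 to 151: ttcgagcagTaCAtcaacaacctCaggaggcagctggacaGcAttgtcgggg

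In exon 4, nucleotide 18 was a site with 4 cDNAs in KRT5 and with 4 in KRT7, and nucleotide 16 one with 3 in KRT5 and 2 in KRT8. The KRT8 positions are not unique. The sequences of KRT5 and KRT7 are identical at 23 of 24 positions and those of KRT5 and KRT8 at 20 (chr12:52517963-52517986, minus, chr12:52238686-52238709, plus, and chr12:52900654-52900677, minus):
KRT5 exon 4, nt 7 to 30: gatgctgccTaCatgAACaaggtg
KRT7 exon 4, nt 7 to 30: gatgctgcctaCaTgagcaaggtg
KRT8 exon 4, nt 7 to 30: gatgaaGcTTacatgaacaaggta

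In exon 5, KRT7 and KRT81 both had sites at each of nt 97, 98 and 99, with 1, 3 and 3 cDNAs in KRT7 and 3, 6 and 2 in KRT81, in sequence identical at 25 of 32 positions. KRT5, identical to KRT7 at 29 of these 32 positions, had no site there, but had sites of 3 and 2 cDNAs at nt 85 and 87, where KRT81 had 3 cDNAs at nt 85 (chr12:52517648-52517679, minus, chr12:52241547-52241578, plus, and chr12:52288042-52288073, minus):
KRT5 exon 5, nt 76 to 107: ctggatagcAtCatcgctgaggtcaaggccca
KRT7 exon 5, nt 76 to 107: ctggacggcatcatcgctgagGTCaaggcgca
KRT81 exon 5, nt 76 to 107: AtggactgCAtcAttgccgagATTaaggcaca

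Nearer the start of exon 5, nt 33 was a site of 7 cDNAs in KRT7 and of 3 in KRT6A, both unique. IgG sites lay nearby, of 4 cDNAs at nt 35 in KRT6A and of 3 and 2 cDNAs at nt 21 and 24 in KRT7. The printed exon 5 stretch of KRT81 held 1 IgG site, of 3 cDNAs at nt 79. In exon 7, nt 21 was a site of 7 cDNAs in KRT5 and of 7 in KRT7, in a stretch of 31 nt identical at 22 positions (chr12:52516827-52516857, minus, and chr12:52245412-52245442, plus):
KRT5 exon 7, nt 1 to 31: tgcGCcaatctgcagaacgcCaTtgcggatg
KRT7 exon 7, nt 1 to 31: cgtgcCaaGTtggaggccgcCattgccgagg

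The bases at the sites differed from those of the mRNAs. Of 351 PDCD4 sites on members' mRNAs, 37.3% were C, 29.6% U, 20.2% A and 12.8% G, whereas the mRNAs themselves held 29% C, 19.9% U, 21.7% A and 29.4% G. The mRNA values pool 13757 nt by length, exon ends and shared sequence included. KRT80 gave 3873 of these nt but 1 of the 351 sites. The 33222 coding sites of the whole PDCD4 list had 33.2% C, 34.4% U, 16.8% A and 15.6% G. The 70 IgG sites on the keratin mRNAs had 42.9% C, 25.7% U, 11.4% A and 20% G. A surplus of C and U over the mRNAs and a deficit of G were therefore found in both keratin sets.

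Sites above the score of 5, the threshold given in the methods, numbered 62 with 468 cDNAs in the PDCD4 list and 5 with 31 cDNAs in the IgG list. They were 11% of the members' PDCD4 sites and 2.82% of their IgG sites, where the whole lists had 1.48% and 0.690%. KRT7 had 30 of the 62, KRT81 16, KRT5 14, and KRT6A and KRT86 1 each. KRT7 had 4 and KRT8 1 of the 5 IgG sites. By region, 21 of the 62 lay in coding sequence (33.9%, 95% Wilson interval 23.3% to 46.3%), 22 in 3′UTRs (35.5%, 24.7% to 47.9%) and 15 in introns (24.2%, 15.2% to 36.2%). The whole PDCD4 list above this threshold had 37.7% in coding sequence, 19.7% in 3′UTRs and 23% in introns. The 3′UTR share of the keratins thus lay above that of the list, with KRT81 giving 13 of the 22 sites, and KRT7 gave 14 of the 15 intronic ones. With every listed site, 33.8% of the members' PDCD4 sites (30.03% to 37.8%) and 17.5% of their IgG sites (12.6% to 23.8%) were coding, and 32.6% (28.8% to 36.5%) and 51.4% (44.1% to 58.7%) were intronic. The whole lists differed in the same direction, with 20.9% of PDCD4 and 9.72% of IgG sites coding and 49.6% and 66.0% intronic, so this contrast between the lists was not particular to keratins.

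Few positions were in both lists. Members held 13 of the 721 shared positions, 5 in KRT7 and 4 each in KRT5 and KRT81, and the PDCD4 score was above 5 at 1 of them (KRT81, position 52286123, with 6 cDNAs against 3). Per the methods, sites of the IgG replicates had been subtracted from PDCD4 before peak calling, which limits such overlap. Why the 721 positions still stand in both lists is not given in the sources used here.

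The partner type I keratins were far less covered. Of 27 type I genes, 5 had a site (KRT10, KRT14, KRT15, KRT17 and KRT18), with 89 PDCD4 cDNAs at 25 sites and 34 IgG cDNAs at 9 sites in all, against the 1811 and 531 cDNAs of the type II members. KRT17 held 37 PDCD4 and 18 IgG cDNAs (log2 ratio 0.43, -0.38 to 1.37), KRT18, the partner of KRT8, held 27 and 10 (0.78, -0.23 to 2.08), and KRT14, the partner of KRT5, held a single PDCD4 site with 3 cDNAs and no IgG site. KRT16 and KRT19 had no listed site. The share of mRNA positions with a unique 30 nt sequence was 84.1% for KRT19, 58.9% for KRT17, 58.6% for KRT16, 50.5% for KRT14 and 16.6% for KRT18, so shared sequence covered little of KRT19. Of the 3 type I genes with at least 10 cDNAs, 1 (KRT15) was at least 2-fold higher in the PDCD4 list, where 18.8% of the 9581 genes compared were. None of the 18 other type II keratins had a site. Of 12 anchor genes of keratin filaments, 11 had sites and 4 of these (PPL, EVPL, PLEC and ITGB4) were at least 2-fold higher, beside the same 18.8% of all genes. The log2 ratios of the 11 ran from -0.21 to 3.90, with a median of 0.77. As a check of the labelled cell type, sites were present on the basal markers KRT5, KRT14 (a single site), KRT17 and TP63 (28 PDCD4 and 15 IgG cDNAs). Sites were also present on the luminal or simple markers KRT7, KRT8 and KRT18, but not on KRT19. This shows epithelial transcripts but not their levels.

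Among the 5 genes other than keratins whose cDNAs per 10000 in both lists were nearest to those of KRT7, by Euclidean distance of log2 values over the 2 lists, were MYH9 (930 PDCD4 and 236 IgG cDNAs, distance 0.25), ANKRD11 (708 and 316, 0.29), AHNAK (1013 and 273, 0.31) and FAM20C (622 and 300, 0.39).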

How the data were processed

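iCLIP was carried out in MCF10A cells with PDCD4 antibody or IgG, 2 replicates each. Using iCount and the genome of Ensembl release 88, the authors subtracted IgG sites from the PDCD4 replicates and merged these. The deposited score is a raw count of cDNAs per 1-nt site, listed where it passed iCount's false discovery rate filter. Their filter on scores greater than 5 was applied here only where stated. The PDCD4 list summed to 409308 cDNAs and the IgG list to 276139.

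Scores were summed per gene label, divided by the list total and compared as log2 ratios with a pseudocount of 1, with exact binomial intervals. Poisson intervals were used for sums and Wilson intervals for shares (95%), all covering counting error only. Regions came from GENCODE release 44 with coding sequence taken first, then 3′UTR, 5′UTR, ncRNA exon and intron. Sequences are from the GRCh38 reference, read with Python 3.11.15, and each 30 nt behind a site or mRNA position was searched in the genome and in all transcripts. All members, 3 comparison lists, the 5 nearest genes and the 3 highest PDCD4 sites above 5 per member, ties included, were named by rule, except 1 of the nearest genes, which is not reported here, and the members and lists were chosen with earlier results of these data known. KRT6C, KRT83, KRT15 and the 4 named anchors were singled out after their values were seen. The calculation of ratios was tested on simulated counts with known folds. Alternatives are given at the end. RNA abundance was not analysed here.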

Additional observations from a re-analysis of the deposited data

How the results depend on the processing

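No paired analysis was possible because each list pools its replicates under 1 score, and for the same reason no replicate could be left out. Of the 12 alternatives for the family log2 ratio (1.20), 8 gave 1.13 to 1.28. The value was 1.92 with scores greater than 5 only, where the IgG sum is 31 cDNAs. It was 1.35 without KRT7 and 1.84 on the representative mRNAs alone, both chosen after seeing the data, as were leaving out KRT86 (1.28) and, for the coding share, KRT7 and KRT86 (32.3%). The number of members at least 2-fold higher was 4 or 5 in 12 of 14 alternatives, where 11.8% to 27.5% of all genes compared were. It was 3 of 3 compared with scores greater than 5, where 52% of 392 genes were and where KRT5 and KRT81 had no IgG site. KRT7 was not among the 4 when sites were counted instead of cDNAs, and KRT8 was not when sites whose 30 nt occur elsewhere were left out or with a minimum of 50 cDNAs. Leaving out the KRT7 label itself left the other 4. With scores greater than 10 only, the family ratio was 0.58 and 0 of 3 members compared were at least 2-fold higher, where 4.92% of 61 genes were. The keratins then had 78 PDCD4 cDNAs and no IgG cDNA, so these values depend on the added 1 cDNA. The coding share above 5 (33.9%) was 31.7% to 35% in 6 of 8 alternatives, 50% of 6 sites with scores greater than 10, and 22.6% with introns taken before exons, because coding sites also lie in introns of other transcripts. The share of coding sites in the helical rod was not run, since protein sequences were not used here. Depth limits KRT8 and KRT80, and shared sequence limits KRT8, KRT6A, KRT81 and KRT86.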
